A study of Mus musculus with 8 samples.

Results

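The insulin and insulin-like growth factor (IGF) pathway was followed through 10 genes in the neural plate of mouse embryos from diabetic mothers. They were taken by name from the gene column of the deposited files, which list 26608 gene symbols: the ligand gene Igf1, the receptors Insr and Igf1r, the receptor substrates Irs1, Irs2 and Irs4, and the binding proteins Igfbp2, Igfbp3, Igfbp4 and Igfbp5. All 10 were found, and their levels are given in each of 8 SAGE libraries.

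The tissue was neural tube of FVB embryos at embryonic day 8.5, cut by laser from cryosections. The 4 protrusion libraries came from outgrowths of the open neural plate. The morphology label calls protrusion 1 separated and protrusions 2, 3 and 4 attached. The 4 open neural tube libraries, numbered 9, 10, 13 and 14 after their titles, came from open neural tube immediately in front of closure site 1, where the neural folds first meet. All embryos had diabetic dams, so both groups share that exposure, and no embryo of a normal pregnancy was used here. How diabetes was brought about is not given in the labels. Whether each library is a separate embryo is not stated in the labels, and protrusions 1 and 2 have titles with a common stem. The p-values therefore cover only library-to-library spread, part of which may be technical.

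Insulin and IGF-1 bind to a pair of closely related receptor tyrosine kinases, Insr and Igf1r. The active receptors phosphorylate adaptor proteins of the insulin receptor substrate family, which dock PI3-kinase and so turn on AKT, mTOR and growth. In the extracellular space the IGFs are held by IGF binding proteins, which can block or prolong their action and are cut by proteases such as Pappa. In the early embryo the pathway is known as a main driver of growth, with Igf2 as a ligand and Igf1r as the principal growth receptor.

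SAGE counts a short tag beside a CATG site near the 3′ end of a transcript, so a level does not grow with transcript length and levels of different genes can be set side by side as counts scaled to the library total (CPM). The tag that the 3′-most CATG of the longest protein-coding transcript would give is shown for the members on which the results turn, because it is the stretch that a read has to match. Sequences are from GENCODE release M21 transcripts (build GRCm38), 5′ to 3′, with the CATG site in capitals. The site that each read came from is not given in the files, whose build is mm9.
Igf1: CATGatttttttttctctccacttat
Insr: CATGtataatacaggctaattacttg
Igf1r: CATGgattaagttaaataaaagaatt
Irs1: CATGgtctatgttgctaccaaaacat
Igfbp2: CATGtatttatatttggaaagagacc
Igfbp4: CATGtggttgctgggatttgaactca

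All 6 tags lie in the 3′ untranslated part of the last exon. In GRCm38 the Igf1r tag is at chr7:68233634-68233659 on the + strand, 35 bases before the transcript end, and the Insr tag at chr8:3150959-3150984 on the - strand, 63 bases before the end. The Irs1 tag is at chr1:82233309-82233334 (- strand), the Igfbp2 tag at chr1:72852259-72852284 (+ strand), the Igf1 tag at chr10:87936079-87936104 (+ strand) and the Igfbp4 tag at chr11:99054184-99054209 (+ strand). Of the 10 members, 9 have a tag found in transcripts of 0 other genes. The Igfbp4 tag is the exception, since its 26 bases also occur in transcripts of 202 other genes. The next CATG upstream in Igfbp4, 449 bases before the end, gives a tag found in 0 other genes.
Igfbp4 upstream site: CATGtctgtatgtactctgtgtgtgt

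The sources used here do not say how tags with several matches were counted, so the Igfbp4 counts are uncertain in a way that the other members' counts are not. Irs2 and Irs4 have 31 and 17 CATG sites in the transcript used, and for each the tag of the 3′-most site was found in 0 other genes.

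The libraries held 5668054 to 16655583 counted reads, and a level of 3 reads corresponded to 0.180 to 0.529 CPM. Fewer genes had reads in the open neural tubes (9920 to 11557) than in the protrusions (14575 to 16330), and of 3280 genes averaging between 5 and 20 CPM, protrusions lacked 0.0915% to 0.549% and open neural tubes 4.85% to 18.8%. A count of 0 therefore says less in an open neural tube than in a protrusion. Open neural tube 13 stood apart from the other libraries of its label. Its level of Sox2, which marks neural progenitors, was 30.9 CPM, against 287 to 550 CPM in the other open neural tubes, and Pax6 was at 4.92 CPM against 40.8 to 60.9 CPM. Sox1 (15.3 CPM against 78.0 to 99.6 CPM), Nes (37.8 CPM against 160 to 185 CPM) and Hes5 (13.9 CPM against 89.6 to 158 CPM) were low in it too. Sox11, at 2746 CPM against 1821 to 2608 CPM, and Cdh2, at 74.4 CPM against 31.4 to 88.3 CPM, did not follow. Sox3 was at 1.26 CPM against 0 to 3.18 CPM. The summed level of the lateral and head mesenchyme markers reached 1136 CPM in that library, while the protrusions had 117 to 351 CPM and the other open neural tubes 78.8 to 221 CPM. Of the 8 symbols of that list in the files 7 had reads, and Foxf1a was at 0 in all libraries. That library was also the highest open neural tube for markers of endothelium (171 CPM against 7.504 to 45.8 CPM), surface ectoderm (324 CPM against 52.9 to 87.7 CPM) and neural crest (61.7 CPM against 3.22 to 15.5 CPM), and erythroid markers stood at 922 CPM in it and 1009 CPM in open neural tube 14. Of all libraries, protrusion 3 had the highest surface ectoderm sum, at 1036 CPM, of which Cdh1 made up 871 CPM. The other protrusions had 142 to 166 CPM. The neural progenitor markers summed to 1392 to 2397 CPM in the protrusions, against 2924 to 3518 CPM in the open neural tubes. Sox11 carried that gap (784 to 1398 CPM against 1821 to 2746 CPM). Without it the summed levels of the other 7 markers overlapped, at 414 to 999 CPM in the protrusions and 178 to 1119 CPM in the open neural tubes. In the attached protrusions Sox1 was at 4.01 to 6.85 CPM, against 15.3 to 99.6 CPM in the open neural tubes (edgeR adjusted p = 0.0350). Sox3 was higher in them, at 23.9 to 50.7 CPM against 0 to 3.18 CPM (edgeR adjusted p = 0.0725). The separated protrusion had Sox1 at 108 CPM and Sox3 at 0 CPM. The paraxial mesoderm markers summed to 670.3 to 1461 CPM in the protrusions, against 132 to 669.6 CPM in the open neural tubes, almost touching. Tbx6 (26.5 to 285 CPM against 0.180 to 1.38 CPM) and Dll1 (110 to 430 CPM against 12.7 to 79.9 CPM) separated the groups, while the other markers of that list overlapped. Pax3 ran the other way in the attached protrusions (1.75 to 6.97 CPM, against 7.75 to 112 CPM in the open neural tubes). The part of all these marker levels in the results was not tested. In such bulk tissue, fewer cells of a type and less RNA per cell cannot be told apart.

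The members fell into clear classes of abundance. Averaged over the 8 libraries, Igfbp4 stood at 290.2 CPM and Igf1r at 262 CPM. Their order was not fixed, with Igfbp4 above Igf1r in 3 of 8 libraries. Igf1r was above the next gene, Insr at 73.6 CPM, in all 8. Insr, Igfbp2 (61.9 CPM) and Irs1 (59.4 CPM) were close together, with Insr above Igfbp2 in 6 of 8 libraries and Igfbp2 above Irs1 in 7. Irs1 was above Igfbp5 (12.6 CPM) in all 8, and Igfbp5 exceeded Igfbp3 (10.7 CPM) in 5. Igf1, Irs2 and Irs4 averaged 2.85, 0.339 and 0.147 CPM. Without open neural tube 13 the means of Igf1r (263 CPM) and Igfbp4 (253 CPM) changed places, Irs1 averaged 41.1 CPM and Igf1 0.841 CPM.

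**Figure D1:**
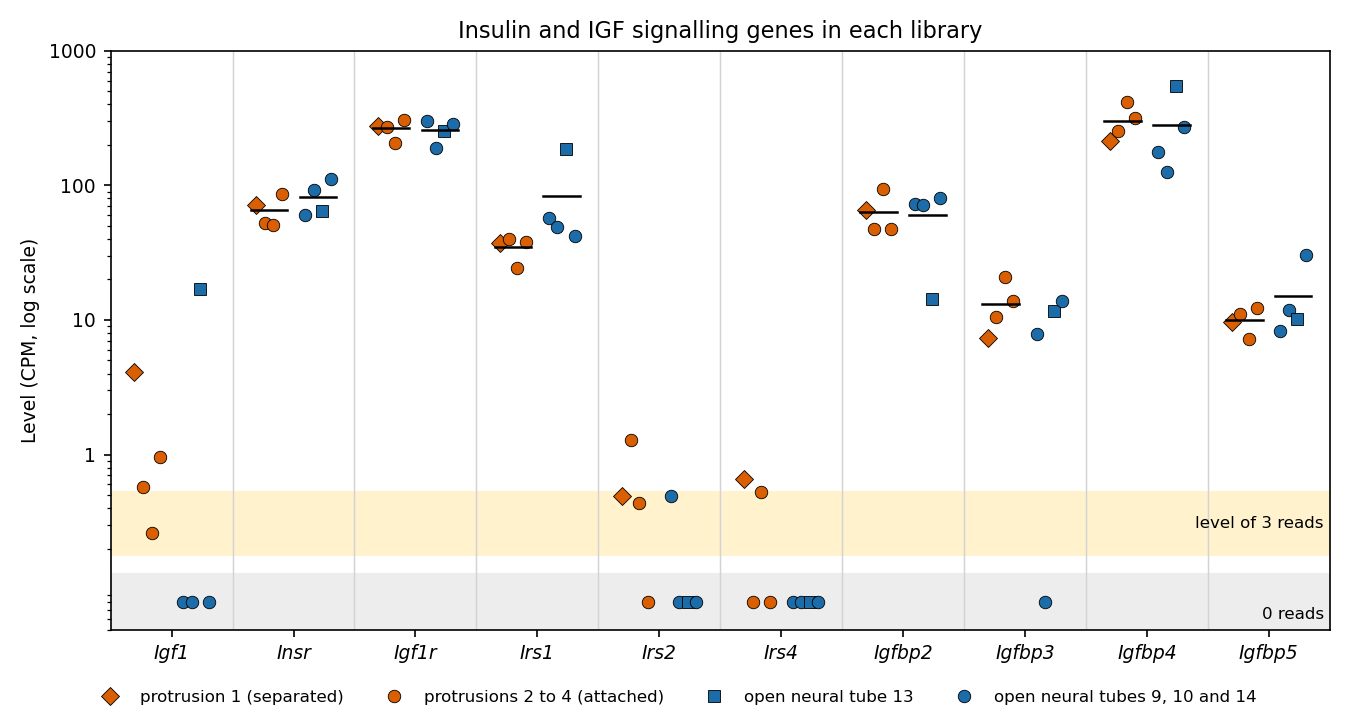
Level of each member in CPM on a log scale, with protrusions left and open neural tubes right of each gene. Each point is 1 library, bars are group means where every library of the group had reads (none for Igf1), libraries with 0 reads sit in the grey band, and the yellow band spans the level of 3 reads. Irs1 is the member whose 4 protrusion values all lie below the 4 open neural tube values.

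Of the 10 members 7 passed the filter on low counts, and 0 of the 7 passed a Benjamini-Hochberg adjusted p of 0.05 in edgeR's quasi-likelihood test, which called 0.607% of the 11036 genes tested. DESeq2 and limma-voom also called 0 of the 7, and over all genes tested they called 795 and 370, against 67 in edgeR. By each of the 3 tools 1 member, Irs1, had an unadjusted p under 0.05, against 15.3% of all genes in edgeR. At those background shares a count of 0 says nothing particular about the members. In edgeR the unadjusted p of Irs1 was no longer under 0.05 without open neural tube 13 or without protrusion 3. The median log2 fold change was -0.04 over the 7 members and 0.08 over all genes tested. The filter left out Igf1, Irs2 and Irs4, which are described by their reads.

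The ligand gene Igf1 was close to undetected in most of the tissue. It had 25 reads in the separated protrusion 1 and 4, 3 and 8 reads in the attached protrusions 2, 3 and 4, which is 4.09, 0.574, 0.262 and 0.962 CPM. In open neural tube it had 282 reads in library 13, 16.9 CPM, and 0 reads in libraries 9, 10 and 14, where 3 reads would be 0.296 to 0.529 CPM. Most reads of Igf1 thus came from 1 library, and all 4 protrusions held at least 3 reads. The groups overlapped, and the difference in mean log2(CPM + 1) was 0.04 (exact permutation test over libraries, 2-sided p = 1). Without open neural tube 13 the difference was 1.08 (exact permutation test, 2-sided p = 0.0571). Only the longest Igf1 transcript was used for the tag above, and shorter transcripts of the gene end at other sites.

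The IGF-1 receptor had a narrow range. Igf1r stood at 275, 273, 207 and 308 CPM in protrusions 1 to 4, against 303, 188, 254 and 285 CPM in open neural tubes 9, 10, 13 and 14. The ranges overlapped almost fully, and open neural tube 13 lay inside the range of its group. The means were 266 ± 42.6 CPM in protrusions, against 258 ± 50.4 CPM in the open neural tubes (± SD over 4 libraries each). The fitted log2 fold change was -0.04 ± 0.22 (SE; edgeR adjusted p = 0.961), with a 95% interval from 0.687-fold to 1.37-fold.

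The insulin receptor was less abundant. Insr stood at 71.2, 52.2, 50.9 and 86.4 CPM in protrusions 1 to 4, against 59.8, 91.7, 64.7 and 112 CPM in the open neural tubes in the same order as above. The lowest values were those of protrusions 2 and 3 and the highest that of open neural tube 14, and the groups overlapped. The log2 fold change was -0.41 ± 0.29 (SE; edgeR adjusted p = 0.569), with a 95% interval from 0.484-fold to 1.17-fold. Igf1r exceeded Insr by 3.57 to 5.23 times in the protrusions and by 2.05 to 5.06 times in the open neural tubes. The insulin receptor message was thus present in every library alongside a larger amount of Igf1r message.

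Among the receptor substrates Irs1 was the one well above the level of 3 reads. It stood at 37.1, 40.0, 24.1 and 37.9 CPM in protrusions 1 to 4, against 57.1, 49.4, 187 and 42.3 CPM in open neural tubes 9, 10, 13 and 14. Every protrusion lay below every open neural tube, though the gap between protrusion 2 and open neural tube 14 was small. Groups did not overlap in 13.4% of all genes tested, 4.55% with protrusions lower and 8.84% with protrusions higher. The means were 34.8 ± 7.20 CPM in protrusions, against 84.0 ± 69.2 CPM in the open neural tubes (± SD over 4 libraries each). The exact permutation test over libraries gave a 2-sided p of 0.0286, unadjusted for the 10 members and the smallest that 4 against 4 libraries allow. In the fit over all genes the log2 fold change was -1.37 ± 0.49 (SE), a 0.388-fold level with a 95% interval from 0.181 to 0.830. It did not pass the threshold (edgeR adjusted p = 0.207).

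The size of the Irs1 difference rested on 1 library. Open neural tube 13 was at 3.78 times the mean of the other open neural tubes, which was 49.6 ± 7.41 CPM (SD, n = 3). Without it the log2 fold change was -0.55 (edgeR adjusted p = 0.366), and the exact permutation test of the log2 difference gave a 2-sided p of 0.0571. The protrusions still lay below the open neural tubes that were left. The part of the marker levels of that library in its Irs1 level was not tested.

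Irs2 and Irs4, the other substrates, were near or below the level of 3 reads. Irs2, a substrate best known from liver and pancreatic islets, had 3, 9, 5 and 0 reads in protrusions 1 to 4 and 5, 0, 0 and 0 reads in open neural tubes 9, 10, 13 and 14. Irs4 had 4, 0, 6 and 0 reads in protrusions and 0 reads in all 4 open neural tubes. Both are reported as barely detectable at this depth, with highest levels of 1.29 CPM for Irs2 and 0.654 CPM for Irs4. A difference between groups was not detectable for either (exact permutation tests, 2-sided p = 0.371 for Irs2 and p = 0.429 for Irs4).

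Igfbp4, a binding protein that mostly restrains IGF action and is cut by Pappa, was the most abundant of the 4 binding proteins in each library. It stood at 212, 252, 415 and 317 CPM in protrusions 1 to 4, against 176, 126, 551 and 273 CPM in open neural tubes 9, 10, 13 and 14. The highest value was again that of open neural tube 13. Open neural tubes 9 and 10 lay below all protrusions, and open neural tube 14 lay inside the protrusion range. The log2 fold change was -0.04 ± 0.42 (SE; edgeR adjusted p = 0.984), with a 95% interval from 0.514-fold to 1.85-fold. Without open neural tube 13 it was 0.58 (edgeR adjusted p = 0.341). The value near 0 changed sign in 9 of 17 alternatives, so no direction can be given for Igfbp4. The shared tag described above adds an uncertainty that these libraries cannot resolve.

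Igfbp2, a binding protein of embryonic epithelia and neuroepithelium, ran the other way in open neural tube 13. It stood at 65.6, 47.6, 94.6 and 47.7 CPM in protrusions 1 to 4, against 72.3, 71.8, 14.4 and 81.1 CPM in open neural tubes 9, 10, 13 and 14. Apart from library 13, the open neural tubes lay between 71.8 and 81.1 CPM, inside the range of the protrusions. The means were 63.9 ± 22.1 CPM in protrusions, against 59.9 ± 30.6 CPM in the open neural tubes (± SD over 4 libraries each), and 75.0 ± 5.21 CPM in open neural tube without library 13 (SD, n = 3). The log2 fold change was -0.01 ± 0.46 (SE; edgeR adjusted p = 0.997) with all libraries and -0.30 (adjusted p = 0.605) without open neural tube 13. The level of Igfbp4 was 3.24 to 6.63 times that of Igfbp2 in the protrusions. It was 1.76 to 3.36 times that of Igfbp2 in open neural tubes 9, 10 and 14, and 38.2 times in open neural tube 13.

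**Figure D2:**
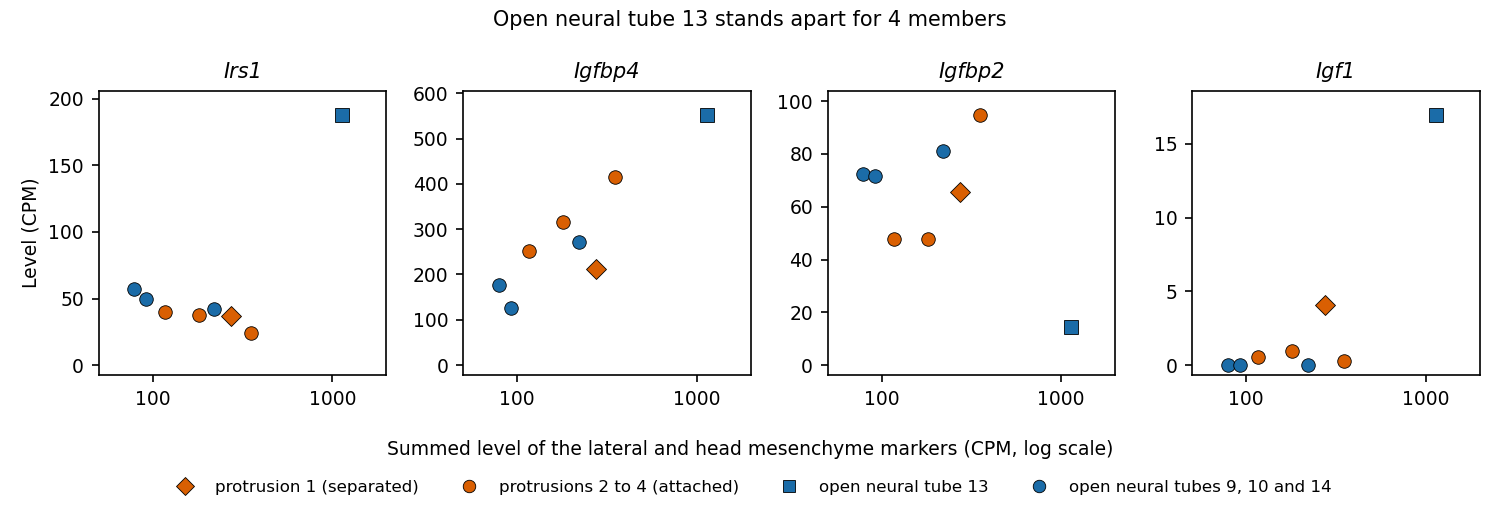
Levels of Irs1, Igfbp4, Igfbp2 and Igf1 in CPM (vertical axes, linear) against the summed level of the lateral and head mesenchyme markers in CPM (horizontal axes, log scale), 1 point per library. Open neural tube 13, at 1136 CPM of these markers, is highest for Irs1, Igfbp4 and Igf1 and lowest for Igfbp2.

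Igfbp3 and Igfbp5, which bind IGFs in serum and in extracellular matrix, were low. Igfbp3 stood at 7.36, 10.5, 20.7 and 13.8 CPM in protrusions 1 to 4, against 7.90, 0, 11.6 and 13.8 CPM in open neural tubes 9, 10, 13 and 14. Open neural tube 10, which had the 0, was the shallowest library and lacked 18.8% of the genes averaging between 5 and 20 CPM. Its log2 fold change was 0.51 ± 1.04 (SE; edgeR adjusted p = 0.8799), the widest error among the members tested. Limma-voom put it at 1.501, and without open neural tube 10 the edgeR value was 0.16. Igfbp5 stood at 9.65, 11.04, 7.17 and 12.3 CPM in protrusions 1 to 4, against 8.29, 11.8, 10.1 and 30.6 CPM in the open neural tubes. Open neural tube 14 alone was high for Igfbp5, and without it the log2 fold change was -0.04, against -0.67 ± 0.57 (SE; edgeR adjusted p = 0.654) with all libraries.

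**Figure D3:**
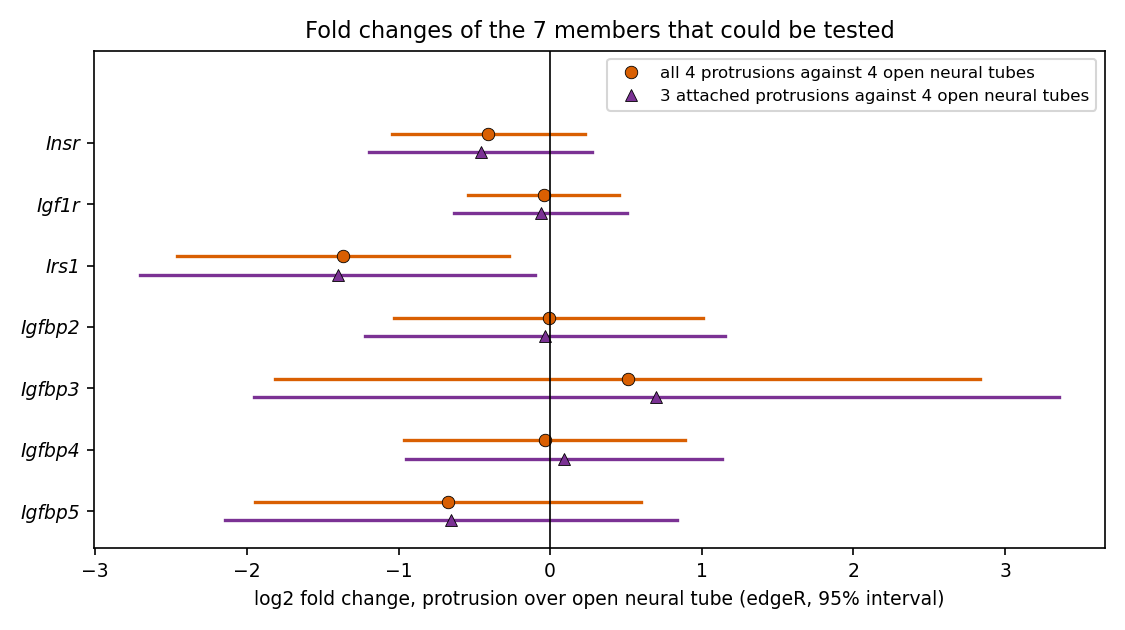
Log2 fold change of the 7 tested members (horizontal axis, protrusion over open neural tube), with 95% intervals from the edgeR fit. Circles are all 4 protrusions and triangles the 3 attached ones, each against the same 4 open neural tubes. The Irs1 intervals lie below 0, but its adjusted p-values were 0.207 and 0.245.

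Setting the attached protrusions alone against the open neural tubes also gave 0 calls among the members. Of the 7 members tested 0 passed the threshold in edgeR, which called 1.5% of 11466 genes (0.741% as lower). DESeq2 and limma-voom called 0 members as well, and over all genes they called 1111 and 869, against 172 in edgeR. Irs1 had an unadjusted p under 0.05 by each of the 3 tools, against 17.7% of all genes in edgeR. In edgeR it was no longer under 0.05 when open neural tube 13 or any 1 attached protrusion was left out. The groups did not overlap for Irs1, as in 24.8% of all genes, 6.94% with attached protrusions lower and 17.9% with them higher. The exact permutation test over libraries gave Irs1 a 2-sided p of 0.0857. The log2 fold change of Irs1 was -1.40 ± 0.58 (SE; edgeR adjusted p = 0.245), -0.61 without open neural tube 13, and that of Igf1r -0.06 ± 0.25 (adjusted p = 0.948). This comparison shares its open neural tubes with the one above. The separated protrusion has no replicate and was not tested. It lay between the lowest and the highest attached protrusion for Insr, Igf1r, Irs1, Igfbp2 and Igfbp5, below all of them for Igfbp3 at 7.36 CPM and for Igfbp4 at 212 CPM, and above all of them for Igf1 at 4.09 CPM.

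The ligand and receptor genes outside the members were followed by a list of 8. Insulin itself was hardly seen, with Ins2 at 0 in all libraries and Ins1 at no more than 0.574 CPM. Igf2, the main embryonic IGF, stood at 407, 364, 115 and 729 CPM in protrusions 1 to 4, against 78.5, 167, 1912 and 201 CPM in open neural tubes 9, 10, 13 and 14 (log2 fold change -0.63 ± 0.93, SE; edgeR adjusted p = 0.820). Without open neural tube 13 its log2 fold change was 1.43, and leaving out any other 1 library kept it below 0. Igf2r, which clears IGF-2 from the cell surface, stood at 3.93 to 66.8 CPM in protrusions, against 13.7 to 61.5 CPM in the open neural tubes (0.33 ± 0.73; edgeR adjusted p = 0.890). Without open neural tube 13 the log2 fold change of Igf2r was 1.12 (adjusted p = 0.453), and 1.46 (adjusted p = 0.0557) without protrusion 1 as well. Igf2 was more abundant than Igf1 in every library.

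Among proteases of the binding proteins and their inhibitors the call depended on the tool. The list has 9 genes, and the 6 that could be tested had a median of -1.08 on the log2 scale. In edgeR 0 passed and 3 had an unadjusted p under 0.05, while DESeq2 called the same 3 genes, Adamts1, Stc1 and Pappa, as lower and limma-voom called Adamts1. Over all genes tested DESeq2 called 795 and limma-voom 370, against 67 in edgeR, where 15.3% had an unadjusted p under 0.05. Adamts1, a secreted metalloproteinase, stood at 38.8, 36.0, 22.8 and 55.4 CPM in protrusions 1 to 4, against 105, 89.8, 180.4 and 135.5 CPM in open neural tubes 9, 10, 13 and 14 (-1.82 ± 0.35, SE; edgeR adjusted p = 0.0507). All 4 protrusions lay below all open neural tubes. Adamts1 passed with each other scaling and filter tried, with DESeq2 (adjusted p = 8.01e-05) and with limma-voom (adjusted p = 0.0274), and did not pass in edgeR when any 1 library was left out (adjusted p = 0.0531 to 0.146) or with protrusions 1 and 2 summed (adjusted p = 0.0827). Stc1, which inhibits Pappa, stood at 15.2, 11.8, 10.9 and 11.5 CPM in protrusions, against 79.0, 75.7, 24.1 and 23.2 CPM in open neural tubes (-2.11 ± 0.47; edgeR adjusted p = 0.0740, DESeq2 adjusted p = 0.00167). Pappa, the protease that cuts Igfbp4, stood at 10.6, 1.00, 6.74 and 4.57 CPM in protrusions, against 36.7, 65.6, 14.4 and 43.2 CPM in open neural tubes (-2.89 ± 0.68; edgeR adjusted p = 0.0794, DESeq2 adjusted p = 0.00104; named after its values were seen). Here, too, the groups did not overlap, and open neural tube 13 was the lowest of its group for Pappa. The lysosomal protease Ctsd was the most abundant of the list, at 247 to 366 CPM in protrusions, against 188 to 464 CPM in the open neural tubes (-0.34 ± 0.27; adjusted p = 0.627).

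Just inside the membrane, 1 of 25 tested adaptors and brakes passed in edgeR, 3 in DESeq2 and 2 in limma-voom, Ptpn11 in each. Over all 11036 genes tested edgeR called 67 (0.607%), DESeq2 795 and limma-voom 370. In edgeR 6 of the 25 had an unadjusted p under 0.05, against 15.3% of all genes. With the attached protrusions alone edgeR called 1 as lower, DESeq2 2 as higher and 2 as lower, and limma-voom 4 as higher and 1 as lower. Over all genes that comparison gave 172 calls (1.5%) in edgeR, 1111 in DESeq2 and 869 in limma-voom. Ptpn11, the phosphatase Shp2 that relays signals from receptor kinases to ERK, stood at 127, 169, 164 and 124 CPM in protrusions 1 to 4, against 240.3, 317, 257 and 314 CPM in open neural tubes 9, 10, 13 and 14. It fell by 1.04 ± 0.18 on the log2 scale (SE; edgeR adjusted p = 0.0410), with all protrusions below all open neural tubes. The call ended when any 1 library other than protrusion 1 was left out (adjusted p up to 0.154), and the log2 fold change stayed between -1.09 and -0.94. It also ended with protrusions 1 and 2 summed (edgeR adjusted p = 0.0542). Leaving out both protrusion 1 and open neural tube 13 ended the call as well (edgeR adjusted p = 0.0557). The median over the 25 genes was 0.24, with 17 above 0 and 8 below. Grb10, an imprinted inhibitor of the receptors and the most abundant of them, stood at 450.4 to 752 CPM in protrusions, against 402 to 564 CPM in the open neural tubes (0.24 ± 0.22; adjusted p = 0.683).

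Further down, 0 of 17 tested genes of the PI3-kinase and AKT group passed with all libraries in edgeR. There 3 had an unadjusted p under 0.05, against 15.3% of all genes. In the attached protrusions 1 of the 17 passed in edgeR, which called 1.5% of all genes. With all libraries DESeq2 called 1, Akt2, and limma-voom 0. Akt2, an AKT kinase tied to insulin action, stood at 119, 286, 221 and 192 CPM in protrusions 1 to 4, against 88.5, 59.3, 94.3 and 95.9 CPM in open neural tubes 9, 10, 13 and 14. Every protrusion exceeded every open neural tube, by least in the separated one. The log2 fold change was 1.18 ± 0.29 (SE; edgeR adjusted p = 0.0824, DESeq2 adjusted p = 0.00552), and in attached protrusions Akt2 rose by 1.37 ± 0.26 (adjusted p = 0.0449). Akt1, the kinase tied to growth, stood at 76.3 to 185 CPM in protrusions, against 104 to 299 CPM in the open neural tubes (-0.86 ± 0.38; adjusted p = 0.314). The call of Akt2 in attached protrusions ended when any 1 library was left out (adjusted p up to 0.144).

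Of 17 tested AKT targets around GSK3, TSC and mTOR, 0 passed with all libraries in edgeR, DESeq2 or limma-voom (median 0.30). An unadjusted p under 0.05 was found for 2, 4 and 5 genes in that order of tools, and for 15.3% of all genes in edgeR. With the attached protrusions alone DESeq2 called 1 as higher, and edgeR and limma-voom called 0. Of 13 tested FOXO factors and FOXO targets, 0 passed with all libraries in edgeR (median -0.11; 1 with an unadjusted p under 0.05), 1 in DESeq2 and 0 in limma-voom. Rheb, the GTPase that switches on mTOR, stood at 404 to 513 CPM in protrusions, against 514 to 655 CPM in the open neural tubes (-0.42 ± 0.16, SE; edgeR adjusted p = 0.230). Rictor, a subunit of mTOR complex 2, was at -1.09 ± 0.43 (edgeR adjusted p = 0.255). Foxo4, the most abundant FOXO gene, stood at 95.2 to 144 CPM in protrusions, against 73.2 to 181 CPM in the open neural tubes (-0.25 ± 0.30; adjusted p = 0.769). Cdkn1a, a cell cycle inhibitor that FOXO factors share with p53, stood at 13.7 CPM in the separated and 29.8 to 51.8 CPM in the attached protrusions, against 0.176 to 3.58 CPM in open neural tube. It rose by 4.02 ± 0.78 in the attached protrusions (edgeR adjusted p = 0.0468) and did not pass with all 4 (3.75 ± 0.77; edgeR adjusted p = 0.0615). With all 4 it passed in DESeq2 (adjusted p = 1.95e-05) and in edgeR without the low-count filter (adjusted p = 0.0419), and not in limma-voom (adjusted p = 0.0817). In attached protrusions the call of Cdkn1a ended without open neural tube 9, 13 or 14 or any attached protrusion (adjusted p up to 0.161).

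The RNA-binding proteins that bind Igf2 mRNA were abundant in all libraries, and 0 of 3 passed with all libraries in edgeR, DESeq2 or limma-voom (0, 1 and 0 with an unadjusted p under 0.05). Igf2bp1 stood at 191 CPM in the separated and 513 to 639 CPM in the attached protrusions, against 193 to 364 CPM in open neural tube (0.77 ± 0.36, SE; edgeR adjusted p = 0.341). With the attached protrusions alone DESeq2 and limma-voom called Igf2bp1 as higher, and edgeR did not (1.03 ± 0.26, SE; edgeR adjusted p = 0.0798). Igf2bp2 stood at 317 to 754 CPM in protrusions, against 458 to 626 CPM in the open neural tubes (-0.22 ± 0.28; adjusted p = 0.793). For both, the separated protrusion lay outside the range of the attached ones. Of the 5 other IGF binding proteins 2 were tested and 0 passed in edgeR, DESeq2 or limma-voom, also at an unadjusted p of 0.05, with Igfbp7 at -1.21 ± 1.32 (adjusted p = 0.748) and Igfbpl1 at -0.42 ± 0.76 (adjusted p = 0.856).

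**Figure D4:**
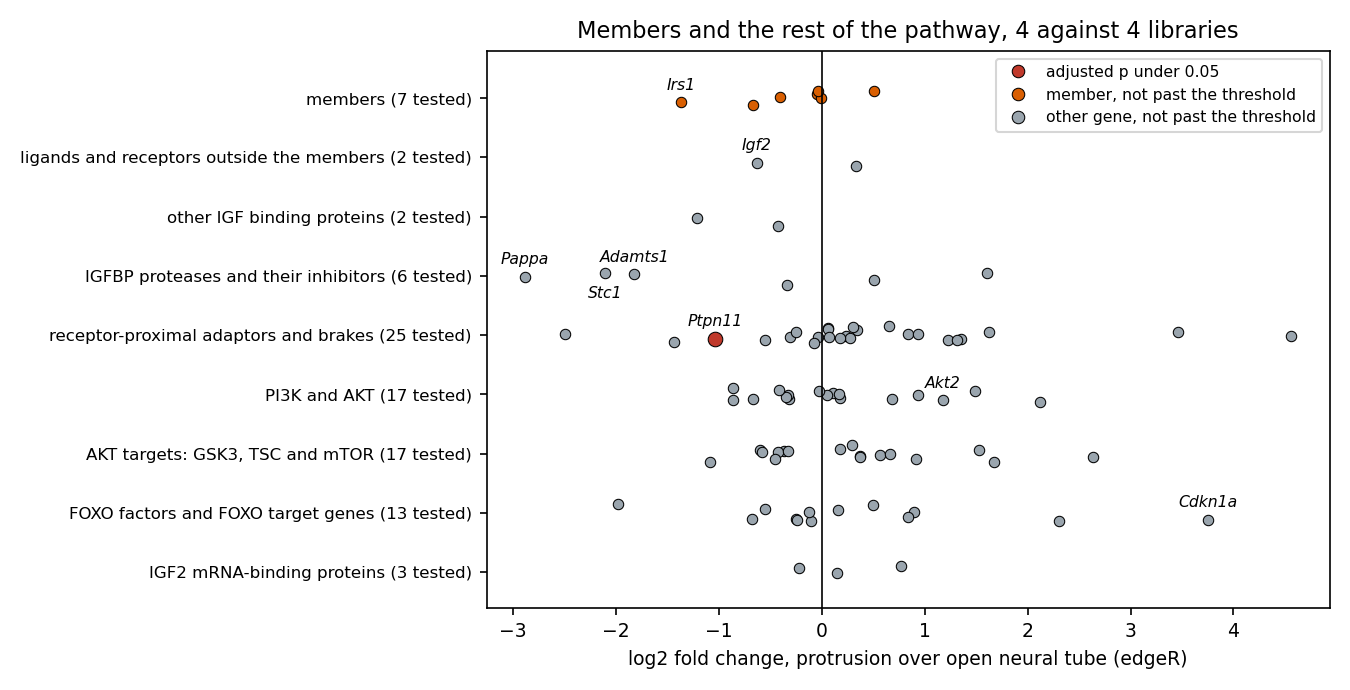
Log2 fold change of each tested gene (horizontal axis, all 4 protrusions over 4 open neural tubes, edgeR) in the members and 8 lists of the wider pathway, 1 point per gene, with small random vertical offsets. The member farthest from 0 is Irs1, and the 1 gene past the threshold, Ptpn11, is in the list of adaptors and brakes.

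The genes whose levels ran most like those of the 3 most abundant members were sought among 3332 genes of at least 50 CPM on average, by Pearson's r of log2(CPM + 1) over the 8 libraries. For Igfbp4 they were Oaf (r = 0.904), Scp2 (0.904) and Xpnpep1 (0.902). For Igf1r they were Ddx3y (0.903), a Y-linked RNA helicase, Yaf2 (0.902) and Tmem199 (0.900). Ddx3y ranged from 0.437 to 184 CPM in protrusions and from 0.882 to 267 CPM in open neural tubes, far more widely than Igf1r. For Insr they were Ubn2 (0.906), Map2k2 (0.896) and Cops2 (0.877). These values describe the same 8 libraries with their shared depth and composition, and are the highest of a large search.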

How the data were processed

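Gene expression was measured by SAGE in 8 libraries, made from 7 to 12 ng of total RNA per the labels' protocols. The authors deposited whole-number counts per gene symbol, with no normalization. Per the submitters' processing notes the build is mm9. The sources used here name no aligner, tag assignment rule or strand setting. Levels are counts divided by the library total (CPM), and the 3-read levels cover counting error only.

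Groups follow the source names, and the separated or attached state follows the morphology label. Replicate numbers of open neural tubes come from their titles, those of protrusions from the listing order. Members and lists were chosen with earlier results of these data known. The fit used edgeR 4.0.16 in R 4.3.3: filterByExpr (minimum count 10), TMM factors, robust quasi-likelihood F test, 2-sided, Benjamini-Hochberg adjustment over all genes tested, threshold 0.05, with standard errors derived from F. DESeq2 1.42.0, limma-voom (limma 3.58.1), other scaling and filters and each library left out were alternatives. Members were also tested by exact permutation of log2(CPM + 1). The scripts were tested on simulated data. 1 gene of the wider pathway is not reported here. Named besides the members were, per pathway list, genes past the threshold in either comparison or the 2 with the smallest p, the most abundant, and for the 3 most abundant members the 3 most correlated genes of at least 50 CPM. Tags were read from GENCODE M21 transcripts.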

Additional observations from a re-analysis of the deposited data

Results flagged for a closer look

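Within groups of 4 libraries, a level was singled out where the gap between the farthest library and its nearest neighbour exceeded 0.829 of the group's range (Dixon's test). Chance does this in about 1 in 20 groups of normally distributed values, which CPM need not be, and 55 such checks were made. Where only 1 library of a group had reads, as for Igf1 and Irs2 below, the gap equals the range at any level, so the mark was fixed in advance. Among open neural tubes, library 13 was so marked for Igf1 (16.9 CPM, against 0 in the others), Irs1 (187 CPM, against 42.3 to 57.1 CPM), Igfbp2 (14.4 CPM, against 71.8 to 81.1 CPM) and Igf2 (1912 CPM, against 78.5 to 201 CPM). The same library was the highest open neural tube for markers of mesenchyme (1136 CPM), endothelium (171 CPM), surface ectoderm (324 CPM) and neural crest (61.7 CPM), and the part of these in the 4 levels was not tested. Library 9 stood out for Irs2 (0.494 CPM, which is 5 reads, against 0) and for Rictor (13.03 CPM, against 21.0 to 22.4 CPM). Library 14 stood out for Igfbp5 (30.6 CPM, against 8.29 to 11.8 CPM) and library 10 for Igf2bp2 (626 CPM, against 458 to 475 CPM). No protrusion library met this mark for any member or named pathway gene.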

How the results depend on the processing

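No member passed the threshold in either comparison under any alternative that was run. Over all genes, leaving out 1 library gave 1 (without open neural tube 9) to 172 calls (without protrusion 1) against 67 for all protrusions, and 10 (without open neural tube 9 or protrusion 4) to 211 (without open neural tube 13) against 172 for the attached ones. Other counts were 103 with upper-quartile factors, 157 and, for attached protrusions, 294 with at least 20 CPM in 4 libraries, 795 and 1111 with DESeq2, 370 and 869 with limma-voom, 36 with protrusions 1 and 2 summed, and 211 without protrusion 1 and open neural tube 13. The log2 fold change of Irs1 stayed below 0 throughout (-1.53 to -0.55, adjusted p 0.0825 to 0.464). Members near 0 changed sign, each uncalled. With no scaling factors Igf1r was at 0.046, Igfbp2 at 0.10 and Igfbp4 at 0.087. Igfbp2 was at 0.013 without the low-count filter, 0.0102 with the stricter one, 0.45 with limma-voom and 0.019 with protrusions 1 and 2 summed. Igfbp4 was at 0.0075 with the stricter filter, 0.11 with limma-voom, 0.064 with those protrusions summed and 0.66 without protrusion 1 and open neural tube 13. That last setting put Igf2 at 1.40 and Foxo4 at 0.026, and limma-voom put Igf2 at 0.012 and Igfbpl1 at 0.47. Leaving out 1 library moved Igf1r between -0.13 and 0.13, Igfbp2 between -0.30 and 0.20, Igfbp4 between -0.22 and 0.58, Igfbp3 between 0.16 and 0.91 (1.501 with limma-voom), Igf2 between -1.08 and 1.43 and Igfbpl1 between -0.77 and 0.26. With a pseudocount of 10 CPM the Igf1 difference was -0.17. The cause of these changes was not tested. No paired analysis was run, because the labels give no pairing of protrusions with open neural tubes and do not settle whether any exists. Complexity of the open neural tube libraries limits what can be said of Igf1, Irs2, Irs4 and Igfbp3.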
